A study of Saccharomyces cerevisiae with 2 samples.

Results

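The nucleosomes described here lie on chromosome 1 of budding yeast on both sides of FUN30, the gene that the study deleted. They were chosen by position: every call with a centre from 80 to 140 kb, except those from 115 to 118 kb. The part left out is called the deleted stretch here, but its limits are not known ends of the deletion. FUN30 is 3396 bp long in the gene table of assembly R64, longer than the stretch. Distances from the stretch need therefore not be distances from the ends of the deletion, and part of the gene can lie just outside the stretch. The choice gave 265 of 48019 calls in the wild-type library and 269 of 48135 in the fun30D library, 534 of 96154 in all. They were divided by distance from the stretch into bins of 0 to 2, 2 to 5, 5 to 10, and 10 kb or more. The side of lower coordinates held 171 wild-type and 173 mutant calls, and the side of higher coordinates 94 and 96. The lower side is 35 kb long and the upper side 22 kb.

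The study compared wild type with fun30D, both in strain BY4741 and with 1 library each. BY4741 is a haploid laboratory strain that carries mutations in HIS3, LEU2, MET15 and URA3, so both libraries share them. Both cultures grew in rich medium (YPD) at 30 °C to an optical density near 0.5 and were fixed with 1% paraformaldehyde. Nuclei were treated with micrococcal nuclease for 10 min at 37 °C, and gel-purified single-nucleosome DNA was sequenced. The labels used here do not say how FUN30 was removed or how many clones were used. Each call has a centre and a width, both in bp, and a signal called occupancy whose scale is unstated. Depth is unknown.

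A nucleosome is a short length of DNA wound on histones, and micrococcal nuclease cuts the DNA between nucleosomes. Fun30 is a Snf2-family ATPase, related to mammalian SMARCAD1, that uses ATP to move or rebuild nucleosomes. In yeast it is known for its part in silent chromatin and in the resection of broken DNA ends. Around its own gene the mutant differs from wild type both in the enzyme and in the adjoining DNA, and these cannot be told apart here.

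In the gene table of assembly R64, FUN30 (YAL019W) lies between ATS1, whose product takes part in tRNA modification, and LDS1, which is involved in the outer spore wall. Beyond ATS1 come CCR4, a catalytic subunit of the main mRNA deadenylase, FUN26, a nucleoside transporter, and PMT2, a protein mannosyltransferase. Beyond LDS1 come PSK1, a protein kinase with a PAS domain, TPD3, a subunit of protein phosphatase 2A, NTG1, a DNA glycosylase, SYN8, DEP1, a part of a histone deacetylase complex, and CYS3, an enzyme of cysteine synthesis. The genome build of the files is not given, so the table served only for names and order. No call was assigned to a gene, and all coordinates are those of the files.

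The calls in the stretch followed the label. It held 18 wild-type calls and 0 mutant calls, so the first mutant calls outside it stood 3888 bp apart. The nearest calls inside and outside each border were as follows. At the lower edge of the stretch the wild-type calls at 114854 (inside the neighbourhood, occupancy 0.359) and 115011 (outside, 2.40) were next to each other. At its upper edge the calls at 117922 (outside, 0.0974) and 118688 (inside, 0.384) were next to each other. At the outer borders the wild-type calls at 79884 (0.180) and 141212 (0.363) were left out and those at 80051 (0.317) and 139702 (0.282) were kept. The mutant calls at 79882 (0.200) and 141219 (0.471) were left out and those at 80044 (0.249) and 139691 (0.386) were kept.

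Each genotype had a single library, so differences between genotypes could not be tested or checked in replicates. Intervals given for shares and medians are 95% intervals for counting error over calls, and calls are not replicates of a genotype. The deposited occupancy values have nearly the same distribution in both files, with quantiles that differed by at most 0.0146%. A ratio between the libraries is therefore relative to all other nucleosomes.

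Occupancy in the neighbourhood was above that of the genome in both libraries. Its median was 0.296 in wild type against 0.276 in the mutant, where chromosomes 1 to 16 gave 0.210 in each library. The rest of chromosome 1 had 0.244 and 0.247. The other chromosomes had medians from 0.197 to 0.243 in wild type. Calls above an occupancy of 1 made up 15.5% of the neighbourhood in wild type and 15.2% in the mutant, against 4.17% in each library over all 16 chromosomes. The summed signal was spread unevenly. Within 2 kb on the lower side it was 12.0 units per kb in wild type, and within 2 kb on the upper side 1.05 units per kb.

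Under 2 kb from the stretch the lower side held a row of strong nucleosomes in both libraries. The nucleosome at 113172 was the strongest, with an occupancy of 5.99 in wild type against 5.25 in the mutant. The one at 113929 had 4.36 in wild type against 4.13 in the mutant, and the one at 114407 had 3.55 and 2.41. The nucleosome at 113335 had 2.35 in wild type against 2.53 in the mutant. All 4 kept their centres to within 2 bp.

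The remaining nucleosomes of this row were weaker and most had a lower signal in the mutant. The nucleosome at 113000 had 0.820 in wild type against 0.624 in the mutant, and the one at 113619 had 1.51 and 1.52. At 113766 the occupancy was 1.19 in wild type against 0.809 in the mutant, with a centre 7 bp higher in the mutant. At 114573 it was 1.18 in wild type against 0.869 in the mutant, with centres 1 bp apart. The lowest ratio of the row was at 114079, and the log2 ratios at 114407 and 113766 were both -0.56. At 114079 the occupancy was 1.36 in wild type against 0.761 in the mutant, a log2 ratio of -0.83, with the mutant centre at 114064. At 114228, the next one, it was 2.19 in wild type against 1.58 in the mutant, with the mutant centre at 114248.

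These 2 nucleosomes lay 149 bp apart in wild type and 184 bp apart in the mutant. The called width at 114079 was 126 bp in wild type against 98 bp in the mutant, and at 114228 it was 119 and 157 bp. The other distances in the row differed by 20 bp or less, except the last. The nucleosome next to the stretch, at 114854 (114801 in the mutant), lay 281 bp from its neighbour in wild type against 229 bp in the mutant. It had an occupancy of 0.359 in wild type against 0.314 in the mutant. Its mutant call was 85 bp wide against 110 bp. The call next to it in wild type, at 115011, lies in the deleted stretch. The place, width and distance of this nucleosome in the mutant cannot be told apart from the change of DNA at the edge of the deletion.

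The upper side had few and weak nucleosomes under 2 kb. The nucleosome at 118688 had an occupancy of 0.384 in wild type against 0.224 in the mutant, at 1 bp from the same place. The one at 119230 had 0.377 in wild type against 0.198 in the mutant, with its centre 20 bp lower in the mutant. The one at 119429 had 0.894 and 0.522. Only the one at 119891 was higher in the mutant, with 0.296 in wild type against 0.375 in the mutant. Each library had 1 more call here without a partner, at 119096 in wild type (occupancy 0.157) and at 118932 in the mutant (0.0958).

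**Figure D1:**
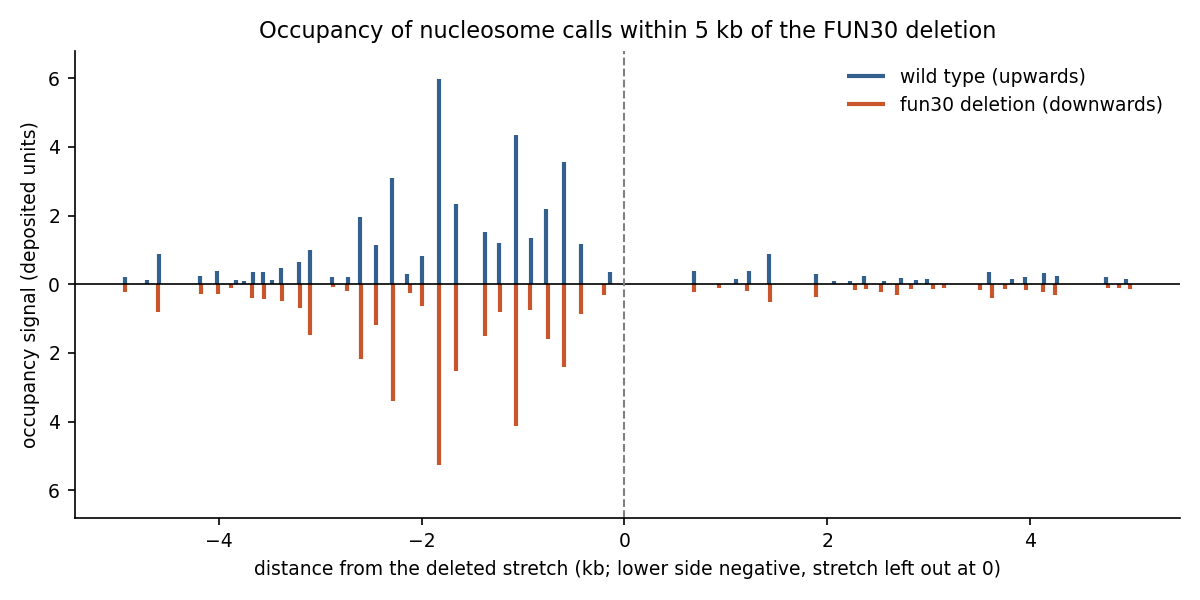
Occupancy signal of each call within 5 kb of the deleted stretch, against the distance of its centre from the nearer edge in kb, with the lower side negative; wild-type calls point upwards and fun30 deletion calls downwards. The strong row under 2 kb on the lower side reached 5.99 in wild type against 5.25 in the mutant, and the calls of the upper side within this distance stayed below 1.

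Under 2 kb, occupancy was lower in the mutant at 12 of 15 paired nucleosomes, or 80% (51.9 to 95.7%). A lower signal of any size was seen in 49.5% of all pairs on chromosomes 1 to 16. On the lower side 9 of 11 pairs were lower (48.2 to 97.7%). The median log2 ratio there was -0.39 (-0.56 to 0.007), with a range of -0.83 to 0.11. On the upper side 3 of 4 were lower (19.4 to 99.4%), with a median of -0.78 and a range of -0.93 to 0.34. For each side alone the interval of the share includes the 49.5% of all pairs. Over both sides the median log2 ratio under 2 kb was -0.44 (-0.78 to -0.08). None of the 15 pairs differed by 2-fold (0 to 21.8%), where 4.87% of all pairs did, so the interval includes that share.

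Further out the ratios lay near 0. The median log2 ratio was 0.04 (-0.15 to 0.19) over 29 pairs at 2 to 5 kb and -0.004 (-0.16 to 0.11) over 46 pairs at 5 to 10 kb. On the lower side the median was 0.05 at 2 to 5 kb, 0.04 at 5 to 10 kb and -0.05 at 10 kb or more. On the upper side it was -0.12, -0.07 and -0.01 in the same bins. The lower medians were thus those of the nearest bin. The share that was lower depended on where this bin ended: it was 90.9% of 11 pairs with an edge at 1.5 kb and 61.5% of 26 pairs with an edge at 3 kb.

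**Figure D2:**
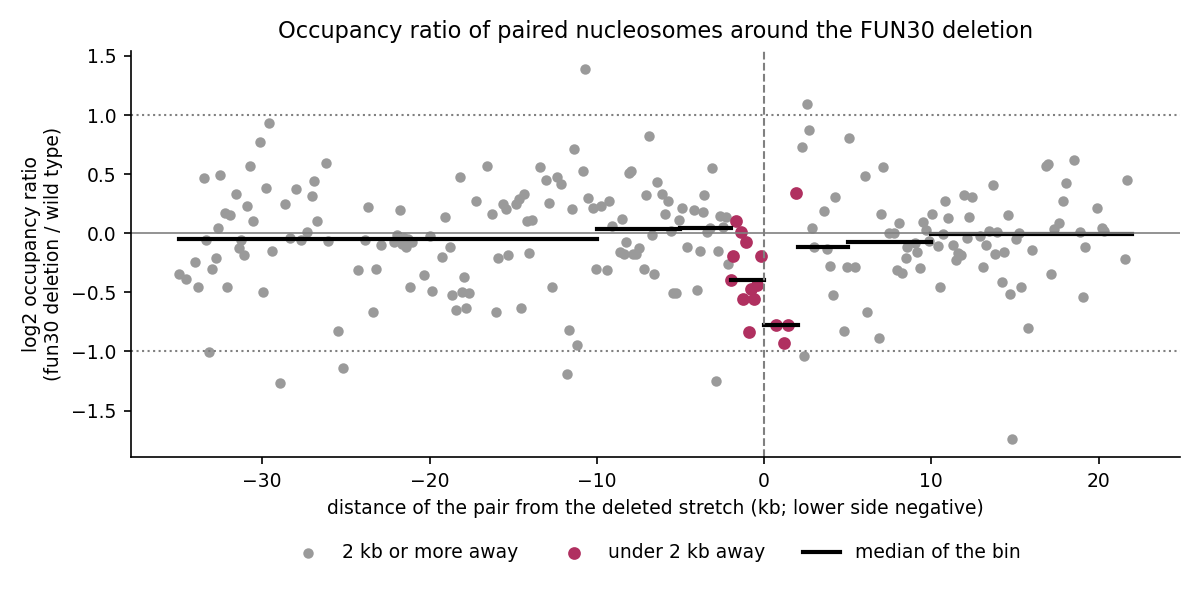
Log2 ratio of mutant to wild-type occupancy for each of 235 pairs against distance from the deleted stretch in kb, with the lower side negative; black lines are bin medians and dotted lines mark 2-fold. The 15 pairs under 2 kb, in colour, had 12 values below 0, and the bin medians beyond 2 kb lay between -0.12 and 0.05.

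Over the whole neighbourhood the occupancies of the 235 pairs followed each other closely. Their log2 values correlated with r = 0.948 across nucleosomes, which share the 2 libraries and are not independent. Over chromosomes 1 to 16 r was 0.882. It was 0.909 on the rest of chromosome 1 and 0.864 to 0.914 on the other chromosomes. The median log2 ratio was -0.05 (-0.10 to 0.01), against 0.01 over all pairs and -0.01 to 0.03 on the other chromosomes. At 9 pairs, or 3.83% (1.77 to 7.15%), occupancies were at least 2-fold apart, where all pairs gave 4.87%. Among the 235 pairs, 2 were at least 2-fold higher in the mutant, where 2.59% of all pairs were. At least 2-fold lower were 7 of the 235, where 2.29% of all pairs were.

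The 5 largest ratios beyond 2 kb, among pairs with both calls above the lower quartile of occupancy, were at scattered places. At 86060 the occupancy was 0.364 in wild type against 0.151 in the mutant, a log2 ratio of -1.27, with centres 5 bp apart. At 103846 it was 0.268 and 0.140, and at 85392 it was 0.206 in wild type against 0.394 in the mutant. The centres of these last 2 were the same in both libraries. At 124838 it was 0.447 and 0.242, with the mutant centre 13 bp higher. At 120730 it was 0.174 in wild type against 0.318 in the mutant, with the mutant centre 36 bp lower. A larger difference, a log2 ratio of -1.74, was seen at 132853, where 0.366 in wild type stood against 0.110 in the mutant, under the lower quartile; it was chosen after its value was seen.

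The 5 strongest nucleosomes beyond 2 kb differed by less than 1.5-fold. The one at 130277 had an occupancy of 5.58 in wild type against 6.13 in the mutant, and the one at 129267 had 4.72 and 4.42. The one at 129943 had 3.41 in wild type against 4.27 in the mutant. The one at 112709 had 3.09 and 3.41, and the one at 132372 had 2.99 and 2.67. Their centres differed by 3 bp or less.

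Positions were compared next. Of the 235 pairs, 49 had centres 20 bp or more apart, or 20.9% (15.8 to 26.6%). Such a displacement was seen in 26.6% of all pairs, in 25.6% of 493 pairs on the rest of chromosome 1, and in 23.97 to 27.8% on the other chromosomes. The median displacement was 6 bp (4 to 8 bp), against 9 bp over all pairs, and 115 pairs, or 48.9%, had centres at most 5 bp apart. The genome share is just inside the counting interval of the neighbourhood. Among the 235 pairs, 23 were displaced to higher coordinates, where 13.4% of all pairs on chromosomes 1 to 16 were. To lower coordinates it was 26 of the 235, where 13.2% of all pairs were. Seen from the stretch, 25 of the 49 displaced pairs had mutant centres further away and 24 nearer.

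Displacement went with occupancy, as over all pairs, and the neighbourhood held many strong nucleosomes. All pairs were divided into 4 classes of equal size by the geometric mean of their 2 occupancies, and 42.1% of the neighbourhood's pairs were in the highest class. There 4 of 99 pairs were displaced (4.04%, 1.11 to 10.0%), against 8.60% of all pairs in that class. In the third class 15 of 57 were displaced (26.3%), against 21.9%. In the second it was 8 of 38 (21.1%), against 33.1%. In the lowest it was 22 of 41 (53.7%, 37.4 to 69.3%), against 42.8%. In each class the genome share lay inside the counting interval of the neighbourhood.

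**Figure D3:**
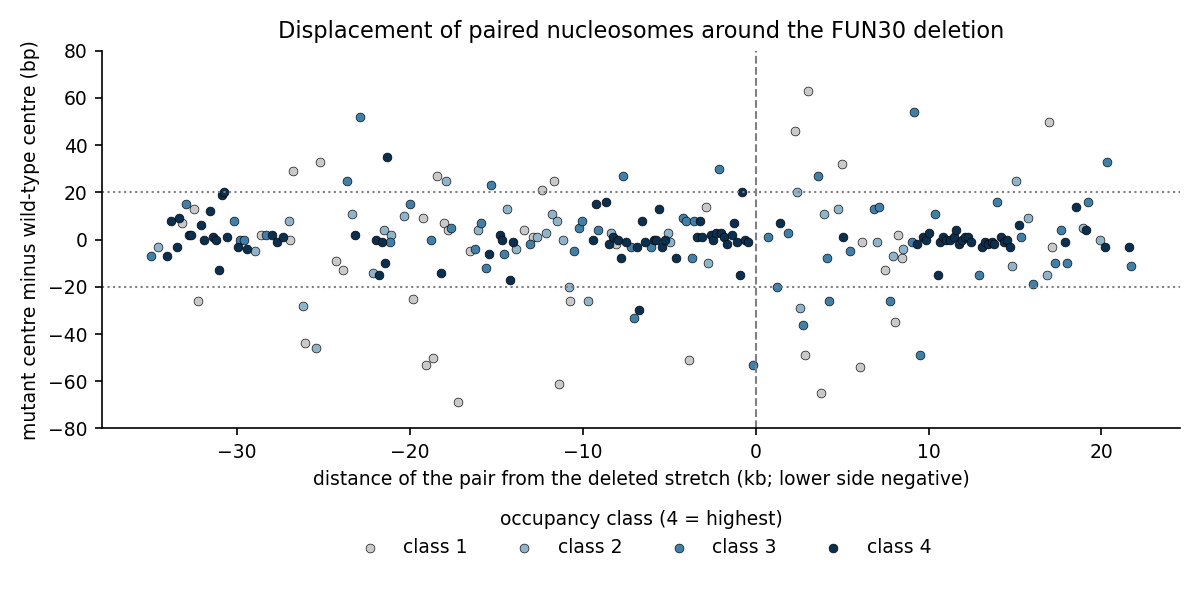
Mutant centre minus wild-type centre in bp for each of 235 pairs against distance from the deleted stretch in kb, with the lower side negative; shading gives the occupancy class and dotted lines mark 20 bp. Points of the highest class lay near 0, with 4 of 99 displaced by 20 bp or more, and the lowest class spread most, with 22 of 41.

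By distance, the intervals of 2 bins left out the share of all pairs, both on the upper side: the displaced share was higher at 2 to 5 kb and lower at 10 kb or more. On the upper side at 2 to 5 kb, 10 of 13 pairs were displaced, or 76.9% (46.2 to 95%), with a median of 29 bp (13 to 49 bp). On the lower side in the same bin it was 2 of 16, or 12.5%. At 5 to 10 kb 4 of 26 pairs were displaced on the lower side and 5 of 20 on the upper side. At 10 kb or more it was 22 of 98 (22.4%) on the lower side and 3 of 47 (6.38%, 1.34 to 17.5%) on the upper side. Those 47 pairs had a median occupancy of 0.590 in wild type, against 0.238 for all pairs, and their occupancy classes were not compared. Under 2 kb 2 of 11 pairs were displaced on the lower side and 1 of 4 on the upper side. The displaced share thus followed no single trend with distance.

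**Figure D4:**
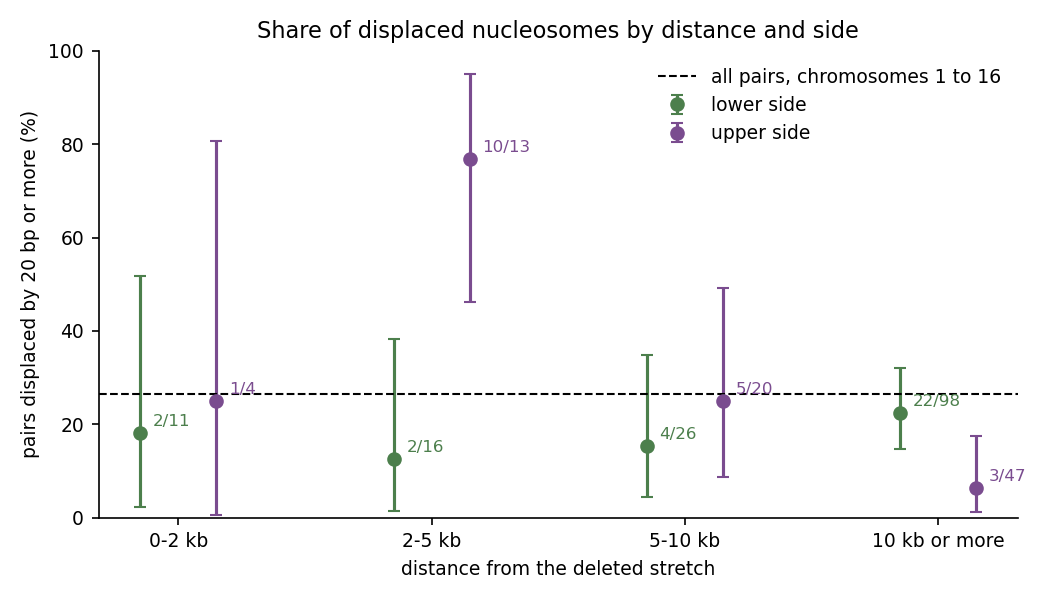
Share of pairs displaced by 20 bp or more in percent, by distance bin and side; points are shares, bars are exact 95% intervals for counting error, labels give displaced over all pairs, and the dashed line is the share of all pairs, 26.6%. The upper side at 2 to 5 kb gave 10 of 13 and the upper side at 10 kb or more 3 of 47.

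The 13 pairs of the upper side at 2 to 5 kb were weak nucleosomes. Their median occupancy was 0.174 in wild type against 0.167 in the mutant, and none was in the highest class. All 5 in the lowest class were displaced, 2 of 4 in the second and 3 of 4 in the third. In those classes the shares of all pairs were 42.8%, 33.1% and 21.9%. The directions were equal, with 5 pairs away from the stretch and 5 towards it. The nucleosomes at 120225, 120564, 120880 and 121821, with a call under the lower quartile of occupancy, were chosen after their values were seen. The nucleosome at 120225 lay 46 bp higher in the mutant, and its occupancy was 0.101 in wild type against 0.167 in the mutant. The nucleosomes at 120564, 120730 and 120880 lay 29, 36 and 49 bp lower in the mutant.

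The next one, at 120982, lay 63 bp higher, further from the one before it. Its occupancy was 0.150 in wild type against 0.138 in the mutant. The nucleosome at 121821 lay 65 bp lower in the mutant, at an occupancy of 0.140 and 0.128. Its called width was 97 bp in wild type against 165 bp in the mutant. The log2 occupancies of these 13 pairs correlated with r = 0.399. Calls of this bin spanned a narrow range, up to 0.348 in wild type and 0.396 in the mutant. An r over so narrow a range is not comparable with that of the whole neighbourhood. Their log2 ratios ran from -1.03 to 1.09, with an SD of 0.63 over pairs, the highest of the 8 bins. A displacement of 40 bp or more was left in 4 of the 13 pairs (30.8%). With both calls above the lower quartile of occupancy 6 pairs were left, of which 66.7% were displaced. Neither share was set against all pairs at the same setting. The low occupancy of these calls moves with the result, and its part in it was not tested.

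The 5 largest displacements outside the nearest bin, among pairs with both calls above the lower quartile of occupancy, included the one at 120982. The nucleosome at 127136 lay 54 bp higher in the mutant, with an occupancy of 0.258 in wild type against 0.231 in the mutant. The nucleosome at 92096 lay 52 bp higher, with 0.251 and 0.234. The nucleosome at 127555 lay 49 bp lower, with 0.300 in wild type against 0.319 in the mutant. The fifth was the one at 120730. The called width at 127136 was 117 bp in wild type against 176 bp in the mutant, and at 92096 it was 118 and 156 bp. It was 161 and 104 bp at 127555, 125 and 132 bp at 120982, and 100 and 118 bp at 120730. The occupancy of 4 of these 5 was close to that of wild type, and the one at 120730 was higher.

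The displaced nucleosomes at 127136 and 127555 stood between others whose centres nearly coincided. The distance from 127044 to 127136 was 92 bp in wild type against 147 bp in the mutant, and the next distance, to 127321, was 185 and 129 bp. The distance from 127321 to 127555 was 234 bp in wild type against 187 bp in the mutant, and the next, to 127685, was 130 and 180 bp. The nucleosomes at 127044, 127321 and 127685 themselves differed by 1 to 2 bp. At 127136 the wider of both distances was above it in wild type and below it in the mutant, while at 127555 it was below in both libraries. These 4 were the largest changes of distance beyond 2 kb among neighbours above the lower quartile of occupancy. The fifth was from 93583 to 93682, with 99 bp in wild type against 144 bp in the mutant.

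Over all neighbours paired in both libraries, 55 of 182 distances in the neighbourhood differed by 20 bp or more, or 30.2% (23.6 to 37.5%). The share was 39.0% of 30021 such distances over chromosomes 1 to 16 and 30.8% of 367 on the rest of chromosome 1. Among the 182 distances, 28 were longer in the mutant by 20 bp or more, where 19.7% of the 30021 were. Shorter by as much were 27 of the 182, where 19.2% of the 30021 were. The median change was 0 bp. The share was thus below that of all chromosomes, beyond its counting interval, and close to that of the rest of chromosome 1. It was 21.6% where all calls were above the median occupancy, and 42.1% of the neighbourhood's pairs were in the highest occupancy class. Distances were not compared with all chromosomes class by class.

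Regular spacing, taken as neighbouring centres from 140 to below 190 bp apart, had nearly the same share in both libraries. It was seen in 104 of 263 distances in wild type (39.5%, 33.6 to 45.7%) and in 105 of 267 in the mutant (39.3%, 33.4 to 45.5%). Over chromosomes 1 to 16 the shares were 29.3% in wild type against 31.5% in the mutant. The difference, mutant minus wild type, was -0.22 percentage points in the neighbourhood (-8.54 to 8.10), and its interval includes the 2.20 points of all chromosomes. On the rest of chromosome 1 the difference was 3.38 points (-1.94 to 8.71). Median distances were 165 bp in wild type against 166 bp in the mutant, and 170 bp in each library over all chromosomes.

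The regular distances were not evenly placed. Under 2 kb on the lower side 8 of 10 distances were regular in wild type, against 7 of 10 in the mutant. At 5 to 10 kb on that side it was 17 of 31 (54.8%) and 17 of 28 (60.7%). At 2 to 5 kb on the upper side it was 4 of 13 and 3 of 16, with a median distance of 166 bp in wild type against 145 bp in the mutant. At 10 kb or more on the upper side it was 28 of 52 (53.8%) and 22 of 48 (45.8%). The intervals of the 2 libraries overlapped in every bin.

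**Figure D5:**
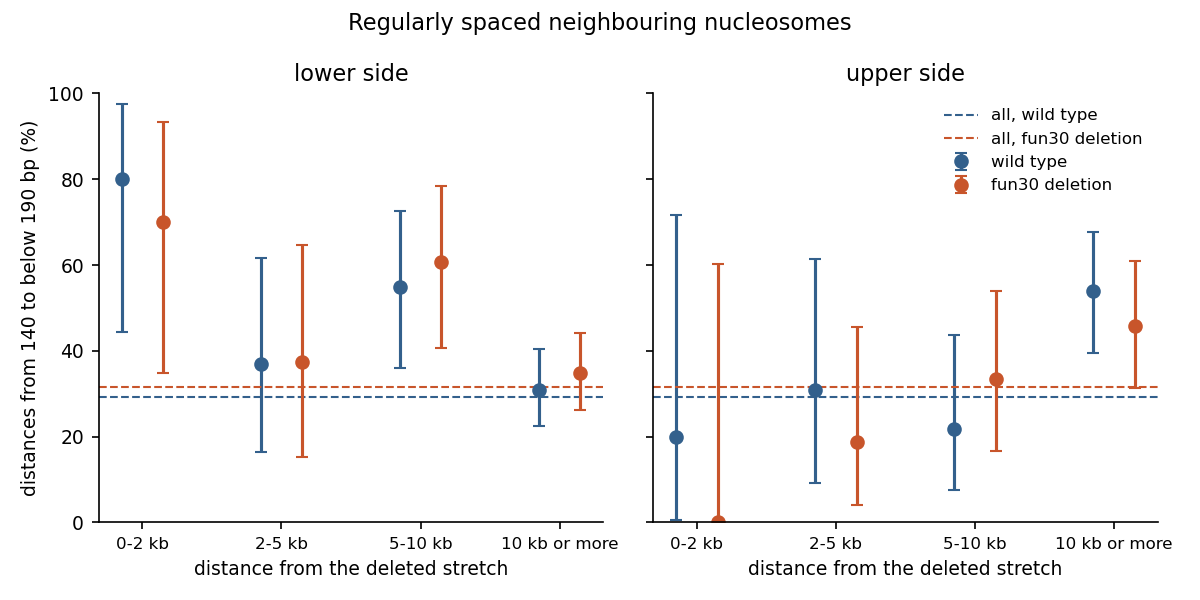
Share of neighbouring distances from 140 to below 190 bp in percent, by distance bin, side and library; points are shares, bars are exact 95% intervals for counting error, and dashed lines are the shares over chromosomes 1 to 16. Under 2 kb the lower side gave 8 of 10 in wild type against 7 of 10 in the mutant, and bars of the 2 libraries overlapped in each bin.

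Runs of at least 5 calls in which every distance was regular were also counted. The wild-type library had 7 such runs in the neighbourhood, with 45 of its 265 calls, and the mutant had 2, with 15 of its 269 calls, or 5.58%. Over all chromosomes the shares were 5.69% and 6.96%. The count rested on the limits of the spacing and on the length of a run. With distances from 130 to below 200 bp there were 9 runs in wild type (22.3% of calls) and 11 in the mutant (24.9%). Over all chromosomes this setting gave 11.8% and 14.0%. At the first limits each library had 12 runs of at least 4 calls, with 24.5% of calls in wild type and 20.4% in the mutant. All chromosomes gave 11.9% and 14.0%. There were 4 runs of at least 6 calls in wild type (11.3% of calls) against 2 in the mutant (5.58%). All chromosomes gave 2.32% and 3.14%. The run from 129267 to 130434 was present in both libraries, with 8 calls and a mean distance of 167 bp in each. The wild-type run from 113619 to 114573, beside the stretch, had 7 calls and a mean distance of 159 bp. In the mutant it was interrupted by the distance of 136 bp between 113928 and 114064, just under the limit of 140 bp. Wild-type runs further from the stretch were also not runs in the mutant, such as the one from 108929 to 110070 (8 calls). The mutant run from 83445 to 84444 (7 calls) was not a run in wild type.

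Calls without a partner were few and weak. In wild type 30 of 265 calls had none (11.3%, 7.77 to 15.8%), and in the mutant 34 of 269 (12.6%, 8.91 to 17.2%). The shares over all chromosomes were 15.0% and 15.2%. The median occupancy of unpaired calls was 0.107 in wild type against 0.117 in the mutant. On the lower side at 2 to 5 kb 3 of 20 wild-type calls and 0 of 16 mutant calls had no partner. At 5 to 10 kb there it was 4 of 30 and 1 of 27, and at 10 kb or more 13 of 111 and 21 of 119. The upper side had 1 of 14 wild-type and 3 of 16 mutant calls without a partner at 2 to 5 kb. At 5 to 10 kb it had 2 of 22 and 6 of 26, and at 10 kb or more 6 of 53 and 2 of 49. Which library had more thus changed with distance on each side.

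The strongest unpaired wild-type calls beyond 2 kb were at 135479 (occupancy 0.298), 84951 (0.237) and 91937 (0.167). The strongest unpaired mutant calls were at 90370 (0.195), 80222 (0.176) and 94145 (0.168). The call at 90370 stood in a place with no wild-type call over 909 bp, from 89796 to 90705. The mutant had 6 calls between these positions, at 89829, 89994, 90140, 90370, 90501 and 90696, all with an occupancy of 0.195 or less; the first and the last were partners of the wild-type calls at its ends.

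Of the 3 widest distances without a call in each library, 1 was among the widest of both. The widest was from 138328 to 139574 in wild type (1246 bp) and from 138361 to 139571 in the mutant (1210 bp). In wild type the next after the one at 89796 was from 93928 to 94643 (715 bp), where the mutant had weak calls at 94045 and 94145. In the mutant the next were from 97764 to 98452 (688 bp), with 1 wild-type call of 0.0869 inside, and from 124173 to 124851 (678 bp), where wild type also had no call between its partners.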

How the data were processed

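Single-nucleosome DNA from 1 wild-type and 1 fun30D culture was sequenced. The submitters' processing notes name Bowtie 0.12.7, a read aligner; they name no caller, settings or genome build. Per the file headers, each deposited call has a centre and width (bp) and a signal, occ, scaled by the authors in a way no source states. Depth is unknown.

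Calls on chromosomes 1 to 16 were paired when each was the nearest to the other with no more than 73 bp between centres. A pair was placed by the mean of its centres, a distance by its midpoint, with both calls on 1 side of the stretch. Shares carry exact Clopper-Pearson intervals, medians order-statistic intervals and differences of shares normal intervals, all at 95% and for counting error only. Replicates were lacking, so no test was run. The 3 mutant calls on chromosome 17 were left out. Pairing was checked on simulated calls with nearly even spacing, a single size of shift and no extra mutant calls. That check does not cover pairing where calls lie close together or where weak extra calls occur. Members, lists and alternatives were chosen with earlier results of these data known. Positions named are all those under 2 kb and, beyond, the 5 strongest pairs, 5 largest displacements, ratios and changes of distance with calls above the lower quartile of occupancy, 3 strongest unpaired calls and 3 widest distances per library; 5 further positions were chosen after their values were seen. Python 3.11.15, numpy 2.4.6, pandas 2.3.3 and scipy 1.17.1 were used. Other pairing limits, thresholds, occupancy filters, centrings and regions were tried.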

Additional observations from a re-analysis of the deposited data

How the results depend on the processing

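Of 82 alternative values, 71 moved by less than the counting error of the reported value and 11 moved further. The difference in regular spacing, -0.22 points with an interval that includes 0, had no stable sign: it was 0.43 points without calls under 2 kb, 2.46 on the lower side, 1.38 with calls of limited width and -5.07 on the upper side. With both calls above the median occupancy the displaced share became 10.4%, the median displacement 3 bp, the share with a 2-fold difference 0% and the share of changed distances 21.6%. With 10 bp as the threshold the displaced share became 37.9% and the share of changed distances 53.8%; with 40 bp they became 7.23% and 12.1%, and on the upper side at 2 to 5 kb 30.8%. A 1.5-fold threshold gave 14.5% in place of 3.83%. The values at other thresholds and above the median occupancy were not set against all chromosomes at the same settings. Within 10 kb of the stretch the displaced share was 26.7%. These moves follow from the thresholds, the selection of strong calls and the region. The settings for the nearest bin, the upper bin at 2 to 5 kb and the runs were chosen after seeing the data; the others were listed earlier. Calls were paired by position, but replicates could not be paired because each genotype had 1 library. The interval for the difference in regular spacing treats the distances of the 2 libraries as independent, although both cover the same places. Bins of 4 to 16 pairs allow wide intervals. Whether the centres of weak calls are less precise was not tested.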

Other observations

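In windows of 5 kb the neighbourhood was uneven in both occupancy and displacement. From 128 to 133 kb, 0 of 26 pairs were displaced by 20 bp or more, the median displacement was 1 bp, both libraries had a median occupancy of 1.03, and 70.4% of distances were regular in wild type and 61.5% in the mutant. From 118 to 123 kb, 11 of 17 pairs were displaced, where 26.6% of all pairs were. These are the same pairs as in the upper bins under 5 kb described above. The median occupancy in this window was 0.203 in wild type against 0.167 in the mutant, and 5 of 19 and 3 of 20 distances were regular. From 95 to 100 kb, 7 of 20 pairs were displaced at median occupancies of 0.164 and 0.158. From 85 to 90 kb the wild-type library had 20 calls and the mutant 25.

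Called widths differed by 20 bp or more at 69 of 235 pairs (29.4%), against 40.5% of all pairs; occupancy classes were not compared separately. These windows and widths were looked at after the other values were known and have no replicate check.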
